A study of Drosophila melanogaster with 2 samples.

Results

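Distal intergenic peaks of the zinc-finger protein Krüppel (Kr) are described here: summits more than 2000 bp from every annotated transcription start site (TSS) of a protein-coding gene and outside every protein-coding gene body. Of the 2102 peaks in the authors' reproducible list on the dm6 genome, 471 met this rule (22.4%, Wilson 95% interval 20.7 to 24.2). That list had been thresholded by the irreproducible discovery rate (IDR), which scores how well the ranking of peaks repeats between replicates, and its peaks are called IDR peaks here. Chromatin of whole embryos of Drosophila melanogaster, males and females pooled, 0 to 10 h old, was assayed by ChIP-seq. The embryos came from a transgenic line that stably expresses Kr carrying GFP at its C terminus, and sonicated chromatin was precipitated through the tag. The labels do not settle whether untagged Kr was also present. There was 1 group with 2 biological replicates, numbered 2 and 3, so no condition could be compared with another. Peaks of the same libraries are not replicates of each other, so shares are given with intervals for counting error alone and no p-value. The files hold peaks and no read counts, and sequencing depth is unknown.

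Kr is a gap gene, expressed in a central band of the early embryo, and its protein mainly represses the genes it binds. It helps to place the stripes of pair-rule genes and limits the domains of other gap genes, and it is used again later in the nervous system and other tissues. Fly developmental genes are often driven by enhancers, short stretches of DNA bound by many factors, which can lie far from the promoter in the non-coding sequence between genes. Peaks there cannot be assigned to a gene by position alone, so each is named here by the protein-coding gene on its left and on its right along the chromosome.

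The core word of Kr binding, AAGGGTT, occurred on either strand within 100 bp of the summit in 78 of the 471 peaks (16.6%, 13.5 to 20.2). The same word was present in 2.34% of 167865 non-overlapping windows of equal length that met the position rule away from IDR summits. The windows below are shown because they carry the highest peaks outside 1 chromosome arm whose sequence is not printed: the 2 highest that lack the word, and the 6 highest that hold it. Each runs from 100 bp before to 100 bp after the summit on the plus strand of dm6, 5′ to 3′, read from the RefSeq copy of the assembly, and the capitals mark the Kr word. Without the word, they lie at chr2L:14023980-14024180 between NimC3 and hll and at chr4:497805-498005 between Asator and zfh2. With it, they lie at chr2L:19323541-19323741 (CG10750 and dnt), chr3L:14956402-14956602 (BobA and Tom), chr3L:6784719-6784919 (Rsph3 and vvl), chr3L:12083853-12084053 (Sema5c and CG17154), chr2L:4810405-4810605 (slf and CG15629) and chrX:2399493-2399693 (PsGEF and CG12496).
NimC3-hll: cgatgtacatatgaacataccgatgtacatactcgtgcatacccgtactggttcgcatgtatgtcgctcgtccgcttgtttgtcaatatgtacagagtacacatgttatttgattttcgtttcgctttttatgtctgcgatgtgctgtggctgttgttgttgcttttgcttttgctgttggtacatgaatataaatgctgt
Asator-zfh2: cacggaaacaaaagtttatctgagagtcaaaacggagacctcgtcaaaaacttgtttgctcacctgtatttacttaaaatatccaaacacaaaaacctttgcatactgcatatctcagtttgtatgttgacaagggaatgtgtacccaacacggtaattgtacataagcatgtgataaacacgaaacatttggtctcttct
CG10750-dnt: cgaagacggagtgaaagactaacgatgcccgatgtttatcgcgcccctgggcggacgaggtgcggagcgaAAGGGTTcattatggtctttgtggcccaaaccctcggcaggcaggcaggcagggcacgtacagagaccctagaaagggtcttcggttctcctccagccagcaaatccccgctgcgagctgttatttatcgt
BobA-Tom: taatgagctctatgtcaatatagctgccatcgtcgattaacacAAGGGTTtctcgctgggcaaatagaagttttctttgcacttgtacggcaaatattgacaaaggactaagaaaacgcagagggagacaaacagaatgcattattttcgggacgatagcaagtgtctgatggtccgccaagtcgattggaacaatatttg
Rsph3-vvl: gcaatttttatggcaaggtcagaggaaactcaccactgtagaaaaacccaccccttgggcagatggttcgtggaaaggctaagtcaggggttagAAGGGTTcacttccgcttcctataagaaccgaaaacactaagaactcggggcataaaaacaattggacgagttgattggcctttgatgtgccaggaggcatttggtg
Sema5c-CG17154: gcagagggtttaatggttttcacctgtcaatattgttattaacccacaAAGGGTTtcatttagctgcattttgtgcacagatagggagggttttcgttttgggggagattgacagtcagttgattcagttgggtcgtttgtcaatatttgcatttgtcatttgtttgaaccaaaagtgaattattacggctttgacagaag
slf-CG15629: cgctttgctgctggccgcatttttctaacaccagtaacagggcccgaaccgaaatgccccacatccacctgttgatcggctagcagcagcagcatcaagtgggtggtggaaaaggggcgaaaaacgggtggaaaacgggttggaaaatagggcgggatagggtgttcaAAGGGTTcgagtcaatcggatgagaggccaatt
PsGEF-CG12496: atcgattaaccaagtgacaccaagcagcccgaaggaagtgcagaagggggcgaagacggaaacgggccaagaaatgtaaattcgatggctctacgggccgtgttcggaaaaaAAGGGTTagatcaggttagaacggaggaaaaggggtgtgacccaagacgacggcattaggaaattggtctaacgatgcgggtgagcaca
The middle of the word lay 3 bp before the summit beside vvl and 15 bp after it between PsGEF and CG12496. Between slf and CG15629 it lay 71 bp after the summit, the widest offset of the 6.

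These peaks and the other IDR peaks were of similar height. Peak height is the signal value the authors deposited for each peak, of unstated scale, and it serves here to rank peaks within a list. The median signal of the distal intergenic peaks was 133 (quartiles 115 and 171, highest 819), and that of the other 1631 IDR peaks was also 133. In replicate 2 the medians were 84.0 for the distal intergenic and 83.0 for the other peaks, and in replicate 3 they were 55.2 and 57.6. When the IDR list was cut into 10 steps of rank, distal intergenic peaks made up 20.5% to 24.8% of each step. They included 3 of the 10 highest IDR peaks, 7 of the highest 20 and 26 of the highest 100. Sequence that meets the rule covers 34.1 Mb of the 133.9 Mb of chromosome arms (25.5%), slightly above the interval of their share of IDR peaks. Core promoters, within 100 bp of a TSS, hold 10.7% of IDR peaks in 2.72% of the bases, sites beyond that and up to 2000 bp from a TSS hold 37.5% in 30.3%, and distal sites within gene bodies hold 29.4% in 41.5%.

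Nearly every distal intergenic peak was found again in each replicate's own permissive list of 30000 peaks, but its rank there often differed. A summit lay within 250 bp in both replicates for 467 of the 471 (99.2%, 97.8 to 99.7). The IDR list is the 2102 highest peaks called on the reads of both replicates together, so this share is in large part built in. As a stricter count, 252 peaks (53.5%, 49.0 to 58.0) were among the 2102 highest of both replicates, beside 53.9% of all IDR peaks. A further 116 were among the highest of replicate 2 only, 81 of replicate 3 only and 22 of neither. When the 471 were split into 4 groups of near-equal size from highest to lowest pooled signal, the share high in both replicates was 98.3%, 72.9%, 39.0% and 3.42%. Support from both replicates lay mostly in the upper 2 groups. This fall is in large part built in, because pooled signal comes from the reads of the same replicates. Signal in replicate 2 was a median of 1.52 times that in replicate 3, with an SD of 0.63 in the log2 ratio, and it was the higher value at 395 peaks. Spearman's rho between the replicates was 0.374 across the 467 matched peaks, which share their libraries, so it is a description only.

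**Figure D1:**
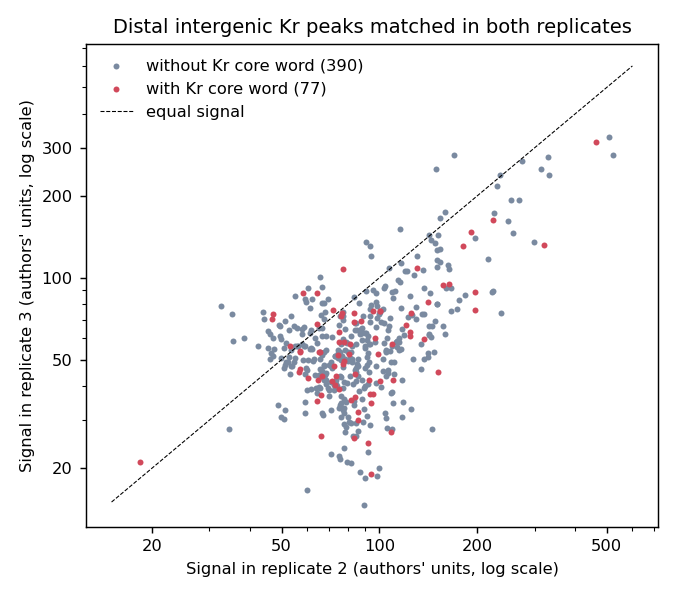
Signal in replicate 2 (x axis) against replicate 3 (y axis), both in the authors' units on log scales, for the 467 distal intergenic peaks matched within 250 bp in both, coloured by presence of the Kr core word. Most points lie below the dashed line of equal signal, and the 77 matched peaks with the word are spread through the cloud.

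In the plot of replicate signals, peaks with the Kr word did not form a group of their own. Their median was 83.6 in replicate 2 and 54.0 in replicate 3, against 84.8 and 55.3 for peaks without it. The 4 peaks with no match in replicate 3 lay between CG15283 and noc (rank 664, 97.3 in replicate 2), CG4004 and Paics (rank 747, 115), CG7606 and sll (rank 1487, 109), and sprt and Smyd4-3 (rank 1645, 93.1). Matching allows 1 replicate summit to serve close neighbours, and 4 peaks shared a summit of replicate 2 and 22 a summit of replicate 3.

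The peaks lay nearer to promoters than the sequence open to them. Their median distance from the nearest protein-coding TSS was 6847 bp (quartiles 3835 and 13319), while the median over every base that meets the rule was 11143 bp (5186 and 28079). Between 2 and 5 kb from a TSS there were 170 peaks, or 20.9 per Mb of such sequence. The density was 16.7 per Mb from 5 to 10 kb, 14.5 from 10 to 20 kb and 11.7 from 20 to 50 kb, where 63 peaks lay. Beyond 50 kb only 4 peaks were found in 5.66 Mb, or 0.707 per Mb. Annotated transposable elements, in which none of the 471 summits fell, make up 11.5% of the rule's bases. For called peaks, 0 of 471 allows a share of up to 0.809% (upper Wilson limit). How reads from repeated sequence were placed is not known, so this sets no limit on binding there. Without the bases of transposable elements the density still ran from 22.5 per Mb in the nearest step to 0.827 in the farthest. Repeats of any kind, in lower case in the assembly, make up 44.7% of the bases beyond 50 kb and 27.2% of all rule bases, and their part in the fall of density was not tested.

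**Figure D2:**
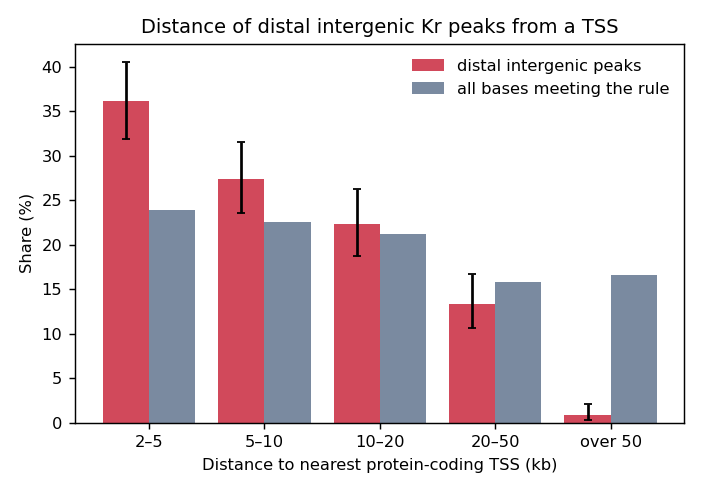
Share (%, y axis) of the 471 distal intergenic peaks and of all bases meeting the rule by distance to the nearest protein-coding TSS (kb, x axis); error bars are Wilson 95% intervals for counting error. Peaks exceed bases at 2 to 10 kb, and beyond 50 kb there are 0.849% of peaks in 16.6% of bases.

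As the bars by distance show, 172 peaks (36.5%) lay over 10 kb from a TSS, where 53.6% of the rule's bases lie. Of the 63 peaks from 20 to 50 kb, 21 (33.3%, 22.9 to 45.6) were among the highest of both replicates. The shares were 57.6% from 2 to 5 kb (50.1 to 64.8), 56.6% from 5 to 10 kb and 53.3% from 10 to 20 kb. Up to 50 kb the share was thus lower at each step, mainly at the last. Median pooled signal was also lower at that last step, 123 against 133 to 137 in the nearer steps. The share high in both replicates falls with pooled signal, and the part of signal in this difference was not tested. All 4 peaks beyond 50 kb were among the highest of both. They are few (51.0 to 100), and 2 of them share a replicate 3 summit, so they do not settle how the share runs there. The nearest TSS belonged to a flanking gene at 466 peaks. The peak lay upstream of that TSS in 262 cases (55.6%, 51.1 to 60.0). The 5 farthest peaks lay in 2 broad gaps on 3L. The most remote, 68632 bp from the TSS of CG12362 and 69562 bp from Or67d, an odorant receptor gene, ranked 1512 with 65.7 in replicate 2 and 50.3 in replicate 3. The next, in the same gap at 57600 bp from Or67d (3L, 10330584 to 10331023), ranked 83 with 237 and 74.2. The replicates differed there by more than their usual ratio. Another peak in that gap, 49943 bp away, held the Kr word 2 times and had 64.5 and 67.4. The other 2 were overlapping peaks 56024 and 55822 bp from vvl, which encodes a POU-domain factor of tracheal and neural cells. Both held the word, with 83.4 and 125 in replicate 2 and the same replicate 3 summit at 74.0. At the near limit, the peaks just inside the rule were 2012, 2020 and 2021 bp from a TSS (ranks 1085, 1928 and 157), and those just outside were 1993, 1992 and 1955 bp away (ranks 799, 760 and 314).

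The 15 highest distal intergenic peaks ranked 6 to 40 of all IDR peaks and lay beside genes of varied function. All 15 were among the highest peaks of both replicates. The 3 highest sat together on 2R between CG13334 and CG42807. The first (13566395 to 13566906, rank 6) had a signal of 525 in replicate 2 and 282 in replicate 3, and the second (13563643 to 13564108, rank 7) had 507 and 328. The third (13561624 to 13562592, rank 8) had 464 and 316 and held the Kr word. In replicate 2 these 3 exceeded every other distal intergenic peak, and in replicate 3 the summit of 282 also served a weaker neighbour. Between NimC3, a Nimrod family gene, and hll, the peak of rank 14 (2L, 14023929 to 14024251), whose sequence opens the set above, had 329 and 277. On chromosome 4 the peak of rank 16 lay 3905 bp from zfh2, a zinc-finger homeodomain gene, with 332 and 238. At rank 17 was a peak 38324 bp from the Hox gene Antp and 14783 bp from Sodh1, a sorbitol dehydrogenase gene (3R, 7037381 to 7037677), with 314 and 252. The gene of the nearer TSS and the developmental gene of the gap thus differed there.

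Further down this order, the flanking genes were of varied function. A peak near RYBP, a gene for a Polycomb-associated protein, ranked 18 on 2R with 275 and 269 in replicates 2 and 3. The peak 152 bp past the end of the gap-junction gene Inx2 on X ranked 23 with 235 and 239, and replicate values there were almost equal. Between blw, which encodes an ATP synthase subunit, and the cyclin gene CycB, the peak of rank 24 had 269 and 193 in a gap of only 1340 bp. The peak 11988 bp from croc, a forkhead gene of the head, ranked 27 with 229 and 218 (3L, 21464374 to 21464617). The peak of rank 29 lay 15028 bp from dnt, a gene for a Ryk family receptor, and held the word. It was less even, with 321 in replicate 2 and 132 in replicate 3. Ranks 30 and 31 lay on 2R near the peaks of ranks 6 to 8. Rank 30, between CG42808 and CG6191, had 255 and 193. Rank 31, between CG13334 and CG42807, had 298 and 136. A pair of peaks beside SoxN, a Sox gene of the nerve cord, ranked 38 with 258 and 146, and 40 with 225 and 173, and lay 22745 and 16458 bp from that gene. Of these 15 peaks 2 held the Kr word, as did 18 of the 100 highest and 78 of all 471.

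Most gaps between genes held no peak, and a few held many. Of 2931 gaps that contain sequence meeting the rule, 246 (8.39%) held at least 1 of the 471 peaks. Of these, 143 gaps held 1 peak, 50 held 2 and 26 held 3. The gap behind the median peak was 25092 bp long, while the middle base meeting the rule lay in a gap of 36217 bp. Counted by spacing, 306 peaks (65.0%, 60.6 to 69.1) had another distal intergenic peak within 10 kb, and 200 of them fell in 46 runs of 3 or more. Single peaks numbered 165, and their median signal was 126, against 138 in runs of 3 or more. Some of this closeness is overlap of the called intervals: 75 peaks had a neighbour no farther away than the usual peak width of 440 bp, and merging left 433 separate regions. An IDR peak of any class lay within 10 kb of 71.5% of the distal intergenic peaks, of 69.7% of those far within gene bodies, and of 45.8% at core promoters.

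The gaps with the most peaks lay beside noc on 2L and CG13334 on 2R. Per length, the gap beside noc held 2.75 peaks per 10 kb and that beside CG13334 held 9.16. Shorter gaps with fewer peaks, such as that of Atx2 and CG6118 with 3 peaks (7.83 per 10 kb; chosen after its value was seen), were denser than the gap beside noc. Between CG15283 and noc, a zinc-finger gene, 11 peaks lay in 39936 bp, with signals of 49.0 to 112 in replicate 2 and 44.9 to 84.2 in replicate 3, where 1 of them had no match. On the other side of noc, up to CG33648, were 7 more, of which the highest ranked 135. With 7 peaks between Cpr35B and CG15283, a stretch chosen after its values were seen, 25 peaks covered 87.6 kb (2L, 14431371 to 14519411). None of them ranked above 135, 17 were among the highest of both replicates and 3 held the Kr word. This stretch thus carried many peaks of middle height. The gap between CG13334 and CG42807 was different in height and spacing, with 9 peaks in 9826 bp, ranks 6 to 1484. All 9 were among the highest of both replicates, counting replicate summits that close neighbours share. Together with 4 peaks in the next gap, up to CG6191, they formed the longest run of the set by count, 13 peaks in 17.6 kb. Of the 13, 1 held the word.

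**Figure D3:**
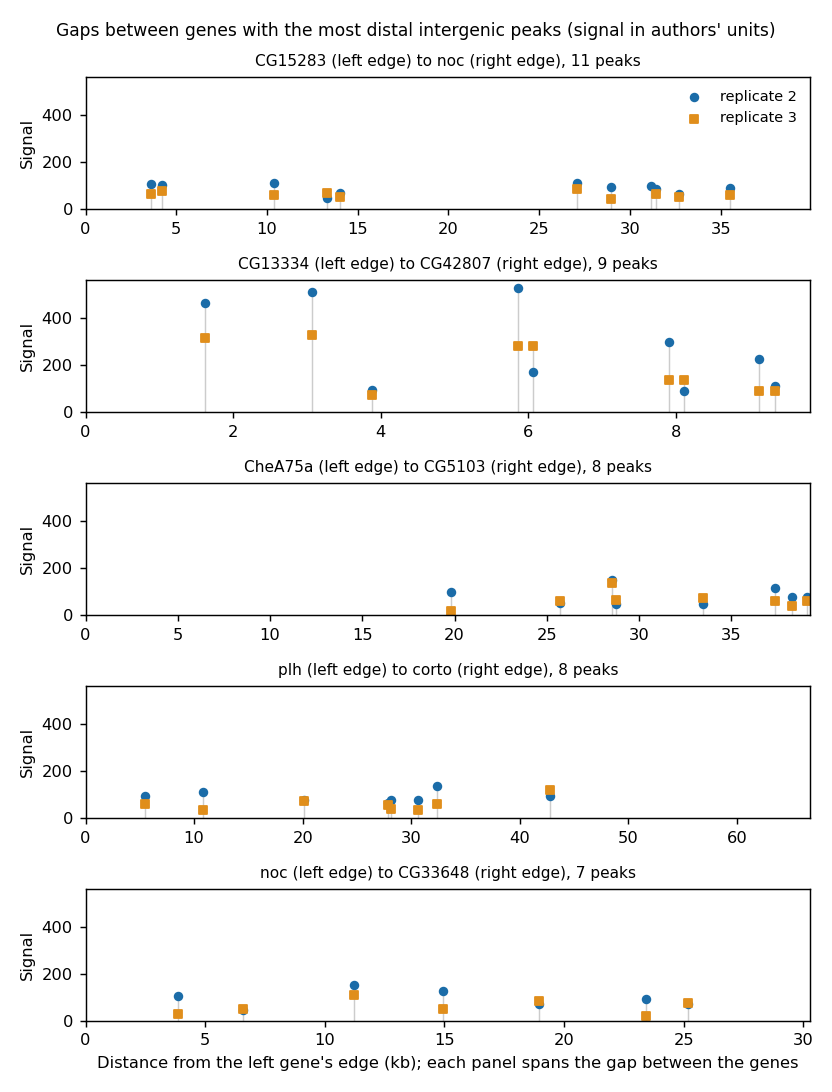
Peaks in the 5 gaps with the most distal intergenic peaks, at their distance in kb from the left gene (x axis), with signal in the authors' units (y axis, the same in every panel) in replicate 2 (circles) and replicate 3 (squares). The peaks between CG13334 and CG42807 reach 525, and no peak of the other 4 gaps passes 151 in either replicate.

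The panels of gap maps also show where peaks stand within a gap. In the gap of CheA75a and CG5103 on 3L, all 8 peaks lay in the right part, from 19.8 kb onward of the 39278 bp, and 3 held the Kr word. Replicate 2 values ran from 45.3 to 149 there and replicate 3 values from 18.7 to 134. Between plh and corto on 3R, the latter a gene for a chromatin protein that works with Polycomb and trithorax group proteins, 8 peaks were spread over 37.3 kb and none held the word. Their values were 61.8 to 135 in replicate 2 and 31.8 to 120 in replicate 3, and 4 of the 8 were among the highest of both.

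Many genes of embryonic patterning and tissue fate stood beside distal intergenic peaks. A gene counted as flanked when it was the first protein-coding gene on either side of a peak, and 440 of 13945 were (3.16%). Of 124 genes in 9 developmental lists, 47 were flanked (37.9%). Genes differ in whether sequence meeting the rule adjoins them, as it does for 4553 of all protein-coding genes. Among genes with such sequence, 46.5% of the listed genes were flanked and 9.66% of all genes. Per length of rule sequence, gaps beside listed genes held 90 peaks at 36.1 per Mb (exact Poisson 95% interval 29.1 to 44.4), and all other gaps held 381 at 12.0 per Mb (10.9 to 13.3). The ratio of 3.00 became 2.25 with transposable elements and bases over 50 kb from a TSS left out. Of 92 ribosomal protein genes, as a contrast, 1 was flanked, RpS3A on chromosome 4, by the same peaks that flank ci. Rule sequence adjoined only 22 of the 92, so the comparable share was 4.55%, and the density beside them was 3.58 per Mb (0.434 to 12.9), an interval that includes the value of all other gaps. Neighbouring genes share gaps and peaks, and the lists were chosen with earlier results of these data known. These counts are therefore a description, and no test was made of them.

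**Figure D4:**
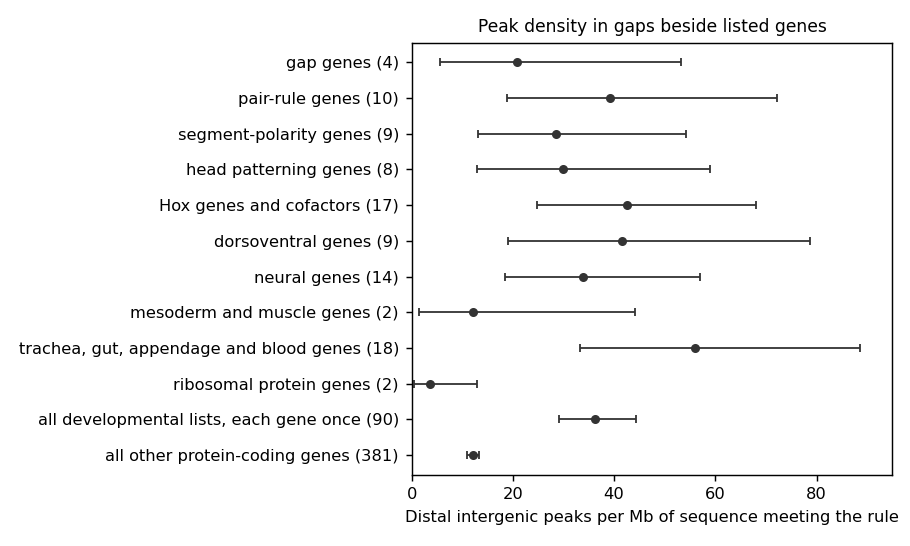
Density of distal intergenic peaks (per Mb of sequence meeting the rule, x axis) in gaps beside the genes of each list (y axis, number of peaks in brackets); bars are exact Poisson 95% intervals for counting error. Gaps of the developmental lists together stand at 36.1 per Mb against 12.0 for all other genes, and lists with few peaks have wide intervals.

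Among the segmentation genes in the density plot, pair-rule genes, which lay down alternate stripes, were flanked at 7 of 9, gap genes at 3 of 7 and segment-polarity genes, which keep segment borders, at 5 of 14. The flanked gap genes were hb, kni and tll, each with the Kr word in its best distal peak. The hb peak ranked 159, with 163 in replicate 2 and 94.9 in replicate 3. The tll peak ranked 1048 (92.6 and 42.1) and was not among the highest of both replicates. The kni peak (3L, 20643787 to 20644226) ranked 785, with 97.3 in replicate 2 and 60.0 in replicate 3. It lay 48323 bp from kni, and its nearest TSS, 6808 bp away, was that of CG13251. Between slp1 and slp2, a pair of forkhead pair-rule genes, 3 peaks of ranks 102, 104 and 454 were all among the highest of both replicates. Their values were 135 to 151 in replicate 2 and 46.1 to 144 in replicate 3. The other flanked pair-rule genes were prd, odd, ftz, hry and opa, with best distal peaks ranked 589 to 1820. The ftz peak lay 21109 bp away in the gap it shares with Antp, with 57.7 and 62.1, and the opa peak held the word, with 86.1 and 29.9. Of segment-polarity genes, ci, the transcription factor of Hedgehog signalling, led with a peak of rank 426 (107 and 66.4). It was followed by the homeobox gene en (rank 522, 83.4 and 85.0), the T-box gene mid (rank 875, 75.3 and 67.2) and the Hedgehog receptor gene ptc (rank 1229, 89.9 and 39.4).

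Hox genes and their cofactors, which set segment identity, were flanked at 6 of 12. After Antp came Dfd and Scr, whose shared gap held 3 peaks. The highest (3R, 6810785 to 6810910, rank 89) had 222 in replicate 2 and 89.0 in replicate 3, so the replicates differed by more than their usual ratio. The cofactor gene hth had a peak of rank 291 with 107 and 109. Of 12 head patterning genes, 4 were flanked: croc, the Sox gene D (rank 330, 104 and 91.9), and the homeobox genes oc (rank 1294) and ems (rank 2072). Dorsoventral genes were flanked at 5 of 19. The mesodermal repressor gene sna led them, with 5 peaks and a best rank of 173 (166 and 91.6), of which 1 was high in both replicates. Single peaks beside Doc1 and Doc2 (shared, rank 1072), 2 beside tup and 1 beside zen made up the rest.

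Among genes of later tissues, the trachea, gut, appendage and blood list was flanked at 9 of 15, neural genes at 7 of 21 and mesoderm and muscle genes at 1 of 16. In the tracheal and gut list the zinc-finger gene salm led with rank 235 (166 in replicate 2 and 75.3 in replicate 3). The Snail family gene esg had rank 333 (141 and 81.2, with the word), the homeobox gene ct rank 677 (87.8 and 69.3, with the word) and the forkhead gene fkh rank 724 (84.9 and 68.3). Of the neural genes, SoxN and vvl had the highest peaks. The vvl peak of rank 55 shown in the sequences above had 191 and 147, and 3 of the 6 peaks beside vvl held the word. The homeobox gene pros followed with a peak of rank 578 (86.7 and 80.5). The temporal factor gene cas had rank 711 (76.7 and 74.1, with the word). The pros peak lay 59260 bp from pros, and its nearest TSS was that of CG5214 at 24918 bp. The cas peak lay 11138 bp from cas, and its nearest TSS was that of CG1239 at 5570 bp. The flanked gene of muscle was slou, a homeobox identity gene, with a peak of rank 345. At 151 and 45.1, the replicates differed there by more than their usual ratio, though the peak was among the highest of both. These counts changed by at most 3 genes in any list with either replicate alone, but they fell when a peak was given only to the gene of its nearest TSS. The total then was 33 genes in place of 47. The neural count fell from 7 to 2, the Hox count from 6 to 3, the trachea, gut, appendage and blood count from 9 to 6 and the gap gene count from 3 to 2. The head and dorsoventral lists each lost 1 gene, and the pair-rule, segment-polarity and mesoderm counts were the same.

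Some genes beside a distal intergenic peak had an IDR peak at their own promoter too. Within 2 kb of their own TSS, 97 of the 440 flanked genes (22.0%, 18.4 to 26.2) had one, beside 339 of 4113 (8.24%, 7.44 to 9.12) with rule sequence beside them and no distal peak there. By orientation, gaps with both promoters facing in held 17.2 peaks per Mb, gaps with both genes ending there 15.4 and gaps of genes in the same direction 13.0. Non-coding RNA genes covered 70 of the 471 summits (14.9%, 11.9 to 18.4), and these genes take up 6.52% of the rule's bases. Within 500 bp of a non-coding TSS lay 43 summits (9.13%) in 3.50% of the bases, so sequence called intergenic by coding genes is not free of transcription units. The most peaks in 1 such gene were 5, in lncRNA:CR44357. The most remote peaks, 68632 and 57600 bp from a protein-coding TSS, both lie in lncRNA:CR46006. The NimC3 and dnt peaks lie in lncRNA:CR31840 and lncRNA:CR45700, and that between Dfd and Scr lies where lncRNA:CR42651 and lncRNA:CR45915 overlap.

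The Kr word was concentrated at the summits. It was present in 16.6% of the summit windows and in 3.87% (2.78 to 5.36) of 878 windows centred 1 kb to either side. In distal peaks within gene bodies the share was 13.1% (10.7 to 16.0), beside promoters 11.4% (9.37 to 13.8) and at core promoters 6.22% (3.74 to 10.2). The interval of the distal intergenic peaks lies above that of core promoters and overlaps that of gene bodies. The same letters in backward order, TTGGGAA, occurred in 4.46% of the summit windows and 4.33% of the flanks. Of the 78 peaks with the word, 71 held it 1 time and 7 held it 2 times. In the same 4 groups of falling signal, 16.9%, 16.9%, 16.1% and 16.2% of the peaks held the word, so the share was nearly the same at each height.

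**Figure D5:**
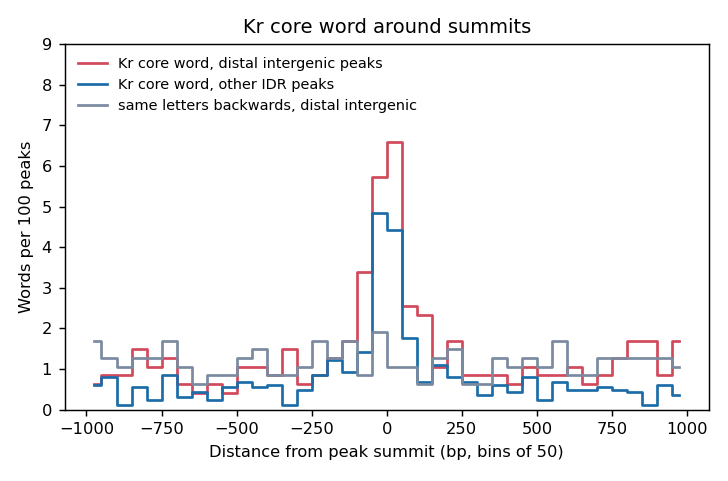
Occurrences of the Kr core word per 100 peaks (y axis) in bins of 50 bp by distance from the summit (bp, x axis), for the 471 distal intergenic peaks and the other 1631 IDR peaks, with the same letters read backwards for comparison. The word reaches 6.58 per 100 distal intergenic peaks just past the summit, and the backward word stays at or below 1.91.

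In the profile of the word, the 4 central bins from 100 bp before to 100 bp after the summit held 3.40, 5.73, 6.58 and 2.55 occurrences per 100 distal intergenic peaks. Bins farther than 250 bp held at most 1.70. Some other words were also more frequent at summits than in flanks, and others were not. CAGGTAG, bound by the pioneer factor Zelda, was present in 3.18% of summit windows and 0.911% of flanks, and GAGAGAG, of GAGA factor, in 5.10% and 1.94%. GAGAGAG reached 12.9% at core promoters. TAATCC of Bicoid was present in 7.64% and 8.77%, TTTTTTT of Hunchback in 14.4% and 18.5%, and TTTATTG of Caudal in 8.92% and 7.97%, so for these 3 the intervals of summits and flanks overlapped. TATCGATA, the DNA replication-related element of many housekeeping promoters, was in 1 of the 471 windows and in 9.78% of those at core promoters. Of all words of 7 letters, AAGGGTT, written AACCCTT on the other strand, had the largest excess over the flanks in percentage points (12.7). By ratio to the flanks it was not the first. The next were AAAGGGT and AAAAGGG, which overlap it, then AAGGGGT, a 1-letter variant (12.3% against 2.73%), and GCAAACA (16.1% against 6.61%). Median GC content was 45.3% at the summits and 41.8% in the flanks, and its part in these shares was not tested.

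Density also differed between chromosome arms. On 2L there were 123 distal intergenic peaks, 19.6 per Mb of rule sequence (16.3 to 23.4), and on 3L 145, 17.0 per Mb. 3R had 14.5 and 2R 9.39 per Mb. X had 33 peaks, 6.20 per Mb (4.27 to 8.70), the lowest of the arms, and chromosome 4 had 5 in 0.239 Mb. X also held fewer IDR peaks of every class together, 236 against 403 to 512 on the other large arms. Of all IDR peaks of X 14.0% were distal intergenic, and 22.6% of its bases meet the rule. On 2R the values were 15.9% and 26.9%, while on 2L (26.8% and 26.6%) and 3L (30.1% and 30.4%) they were nearly equal. The 64 peaks of 2R were few but the highest of the large arms by median, at 99.5 in replicate 2 and 62.6 in replicate 3, against 78.5 to 84.2 and 53.3 to 57.3 elsewhere. None of the 471 lay within 20 kb of Kr itself, which is embedded in the body of another gene, CG9380. The peak with no gene on its right, of rank 1559, lay 2261 bp from CG9380, with 73.5 in replicate 2 and 40.7 in replicate 3.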

How the data were processed

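Peaks of Kr-GFP embryos were taken as deposited by the authors, in narrowPeak lists for dm6: 1 permissive list for each replicate, 1 for both pooled, and the IDR list. The authors' lists give a signal value of unstated scale and, per peak, a q-value as its −log10. In the 471 peaks described, q ran from 0.000490 to 0.00325. Per the file lists deposited by the authors, peaks were called per replicate and on pooled reads against a control, which is not analysed here. The aligner, peak caller and IDR threshold were not given in the sources used here. The dm3 lists were not used.

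TSSs and gene bodies came from Ensembl release 115 of BDGP6 (13945 protein-coding genes on the main arms) and sequence from RefSeq's copy of dm6. Chromosome names and lengths matched. Python 3.11.15, numpy 2.4.6, pandas 2.3.3, scipy 1.17.1 and matplotlib 3.10.9 were used. Shares and densities were set beside a census of every base that meets the rule. Runs joined summits with gaps under 10 kb. Named are the 15 highest peaks, the 5 fullest gaps, the 5 farthest peaks, 3 peaks on each side of the distance limit, and up to 4 flanked genes of each list (all for gap and pair-rule genes). The position classes, word search and runs were tested on simulated data. The peaks, lists and settings were chosen with earlier results of these data known. Depth is unknown, and intervals cover counting error only. Alternatives were other distances, gene types, match widths, gap limits, words and their windows, a shortened IDR list, merged peaks and each replicate alone.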

Additional observations from a re-analysis of the deposited data

How the results depend on the processing

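The share of IDR peaks called distal intergenic followed the rule itself: it was 25.8% at 1000 bp, 14.3% at 5000 bp and 15.8% with genes of every biotype. It was 22.1% to 23.5% with either replicate's 2102 highest peaks alone. The share matched in both replicates was 90.4% within 100 bp and 99.8% within 500 bp, and in the upper ranks of the IDR list, cut at its middle, 85.6% of the distal intergenic peaks were high in both replicates. The ratio of median signal to the other IDR peaks, 1.00 on pooled signal, was 0.957 to 1.01 in the replicates. The share with a neighbour was 50.3% within 5 kb, 73.9% within 20 kb, 59.6% after merging and 63.4% to 67.7% with 1 replicate. The density ratio beside listed genes was 2.25 without transposable elements and bases over 50 kb from a TSS, and 2.95 to 3.39 with 1 replicate. The Kr word was found in 11.7% of windows of 50 bp to each side (flanks 1.48%). The longer AAGGGTTA was in 6.37% (flanks 0.911%), AGGGTT in 22.1% (7.63%), and AAGGGTT or AAGGGGT, added after seeing the data, in 26.1% (6.38%). With 1 replicate it was 14.8% to 15.4%. The cause of these shifts was not tested. Leaving out peaks within 20 kb of Kr removed none. Given only to the gene of the nearest TSS, peaks flanked 33 listed genes in place of 47, and with either replicate alone 47 and 50. With windows of 150 bp to each side the Kr word was in 19.96% (flanks 5.81%). No paired analysis was possible because there is 1 group. Depth, being unknown, sets no limit that could be stated.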
